A study of Mus musculus with 6 samples.

Results

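Expression of 10 genes of cartilage and tendon was followed in sorted mouse vascular smooth muscle cells (SMC): Sox9, Col11a1, Col11a2, Itga10, Acan, Comp, Chad, Fmod, Scx and Tnmd. These are 10 of the 32179 genes in the deposited table. The members were selected by symbol with the control against knockout (KO) values of this same table already known, and that contrast is therefore given for them as a description, without a test. Of the 10 members, 9 passed the filter on low values, a mean of at least 10 normalised reads over all libraries, and Scx did not.

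The cells came from skeletal muscle of male C57BL6J mice aged 8 to 24 weeks. All 6 samples are labelled as carrying the Gprc5c-floxed allele and the mTmG reporter, which switches cells to EGFP after Cre recombination, and all mice received tamoxifen. The 3 controls are labelled wild type, and the 3 iSM-G5C-KO samples are depleted of GPRC5C, an orphan G protein-coupled receptor, in smooth muscle. The Cre line, the deleted exons and whether each library came from 1 mouse are not given in the sources used here. Hence p-values cover only variation among these libraries, part of which may be technical. Viable EGFP-positive cells were sorted, on either of 2 sorter models, after depletion of cells bearing CD31, CD45 or Ter119, which mark endothelial, leukocyte and red cell lineages. The design addresses how expression in SMC differs when the receptor is depleted.

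SOX9 is the transcription factor that sets and maintains the cartilage cell, where it works with SOX5 and SOX6 and activates genes for collagens II, IX and XI and for aggrecan. Scleraxis, the product of Scx, has a comparable place in tendon cells, in which tenomodulin and fibromodulin are abundant. In the vessel wall SOX9 is known from SMC that take on cartilage-like features during matrix remodelling and calcification.

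The libraries held an estimated 1479598 to 2935114 reads in genes. From 20481 to 21179 genes were above 0 in each library except control library 3, where 29707 were. The smooth muscle label was borne out by its markers, with Myh11, the smooth muscle myosin heavy chain, at 3883 to 4940 and Acta2, smooth muscle actin, at 995 to 1260. Markers of other cells were also read. The summed value of 8 fibroblast markers was 3224 to 4729 in controls and 2681 to 4574 in the KO group, that of 6 pericyte markers 5646 to 8796 and 6144 to 10213, and that of 8 skeletal muscle fibre markers 1291 to 3077 and 1870 to 7987. Endothelial markers (6 genes) summed to 314, 443 and 619 in controls 1, 2 and 3 against 376, 861 and 794, higher in the KO library of each pair with overlapping groups. The log2 fold change was positive for 6 of 6 endothelial markers (median 0.34), 6 of 6 pericyte markers (median 0.24) and 7 of 8 fibre markers (median 0.31), and negative for 8 of 8 smooth muscle markers (median -0.13, with Acta2 barely below 0). The part of these shifts in the member values was not tested. Sums over 6 leukocyte, 6 satellite cell and 7 Schwann cell markers were 412 or less in every library. Gprc5c itself was at 428, 532 and 497 in controls 1, 2 and 3 and at 328, 305 and 360 in KO libraries 1, 2 and 3, giving means of 485.7 ± 52.9 and 331.0 ± 27.6 (SD, n = 3 each) and a KO mean at 68.2% of control.

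Sox9 (ENSMUSG00000000567, chromosome 11, 112782224 to 112787760, plus strand, GRCm38) stood lower in all 3 KO libraries than in all 3 controls. Its normalised read counts were 43, 35 and 46 in controls 1, 2 and 3, against 18, 17 and 21 in the same order of KO libraries. The highest KO value lay below the lowest control value, and the spread within each group was small beside the gap. The means were 41.3 ± 5.69 and 18.7 ± 2.08 (SD, n = 3 each), a KO level of 45.2% of control and a log2 fold change of -1.10 (SE 0.23) on the log2(value + 1) scale. Between libraries of the same number the log2 difference was -1.21, -1.0 and -1.10 for numbers 1, 2 and 3, the tightest set among the members with lower KO values. These values rest on about 57.0, 38.3 and 34.7 reads in controls and 21.7, 18.4 and 15.0 in the KO group. This alone gives a counting error of 13.3% to 25.8% per library, so the close agreement of the KO libraries is not read as precision. In bulk RNA of sorted cells, fewer cells that express Sox9 and less Sox9 RNA per cell cannot be told apart.

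**Figure D1:**
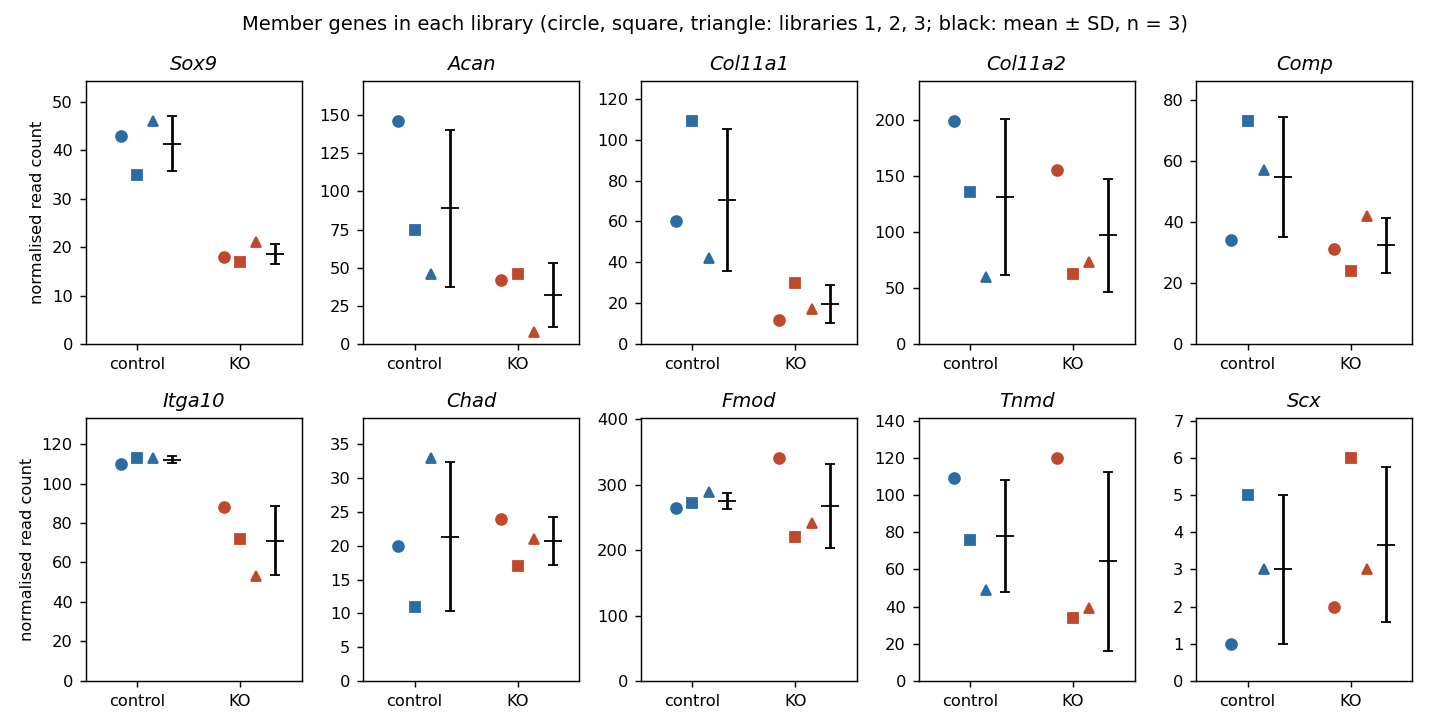
Normalised read counts (vertical axis, linear, from 0) of the 10 member genes in 3 control (blue) and 3 KO (red) libraries, where circle, square and triangle are libraries 1, 2 and 3 and black marks give mean ± SD. Groups are separate for Sox9 (35 to 46 against 17 to 21), Col11a1 and Itga10, and overlap or touch in the other members.

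Scx, the tendon transcription factor, was barely read. It was at 1, 5 and 3 in the controls and 2, 6 and 3 with GPRC5C depleted, which is 1.3 to 6.5 estimated reads, and at this depth no difference could be detected.

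Col11a1 and Col11a2 encode chains of collagen XI, which forms thin fibrils together with collagens II and V. Col11a1 (ENSMUSG00000027966, chromosome 3) was at 60, 109 and 42 in the 3 controls, against 12, 30 and 17 in the KO group. Every KO value was below every control value, and control library 2 stood highest. The means were 70.3 ± 34.7 and 19.7 ± 9.29 (SD, n = 3 each), a KO level of 28.0% of control and the lowest log2 fold change of the tested members, -1.77 (SE 0.43). Col11a2 (ENSMUSG00000024330, chromosome 17), the partner chain, was at 199, 136 and 60 in control cells compared with 155, 63 and 73 in KO cells. Its groups overlapped: both libraries numbered 1 were high, and KO library 3 exceeded control library 3. The log2 fold change of Col11a2 was -0.39 (SE 0.48), and it was -0.02 without control library 1 and -0.87 without control library 3.

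Acan (ENSMUSG00000030607, chromosome 7) encodes aggrecan, the large chondroitin sulfate proteoglycan that holds water in cartilage. Acan stood at 146, 75 and 46 in the controls and 42, 46 and 8 with GPRC5C depleted. The groups touched at 46, and KO library 3, with about 5.7 reads, was far below the rest. The means were 89.0 ± 51.4 and 32.0 ± 20.9 (SD, n = 3 each), a KO level of 36.0% of control with a log2 fold change of -1.62 (SE 0.68). Without KO library 3 the fold change was -0.84, and without control library 1 it was -1.18. Comp (ENSMUSG00000031849, chromosome 8), the pentameric glycoprotein that binds collagen in cartilage and tendon, was at 34, 73 and 57 in the 3 controls, against 31, 24 and 42 in the KO group. Control library 1 lay inside the KO range. The log2 fold change of Comp was -0.71 (SE 0.33), and it was -0.47 without control library 2.

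Itga10 (ENSMUSG00000090210, chromosome 3) encodes the integrin α10 chain, a collagen receptor typical of chondrocytes. It was at 110, 113 and 113 in control cells compared with 88, 72 and 53 in KO cells. The controls were nearly identical, and the KO values were all lower and spread more widely. Counting error alone was 8.3% to 10.8% in the control libraries. Their agreement is closer than counting allows, so the difference in spread between groups is not interpreted. The means were 112.0 ± 1.73 and 71.0 ± 17.5 (SD, n = 3 each), a KO level of 63.4% of control and a log2 fold change of -0.68 (SE 0.20). In GENCODE M21, 33.5% of the exonic bases of Itga10 are shared with Gm42957 on the same strand, which was at 1 to 9 in the table. Reads there could have been assigned to either gene or left uncounted. Any such loss would also lower the level of Itga10 per exonic base. Chad and Scx lie within Acsf2 and Bop1 on the opposite strand and share 0 exonic bases with them.

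Counts of members are read here beside those over all 12735 tested genes, and since the members were chosen from this contrast nothing is concluded from them. KO values were below control values without overlap in 3 of the 10 members (Sox9, Col11a1 and Itga10), against 2.21% of tested genes. In 5 members (those 3, Acan and Comp) the KO library was lower than the same-numbered control in all 3 pairs, against 15.4% of tested genes. No member was higher in all 3 pairs.

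**Figure D2:**
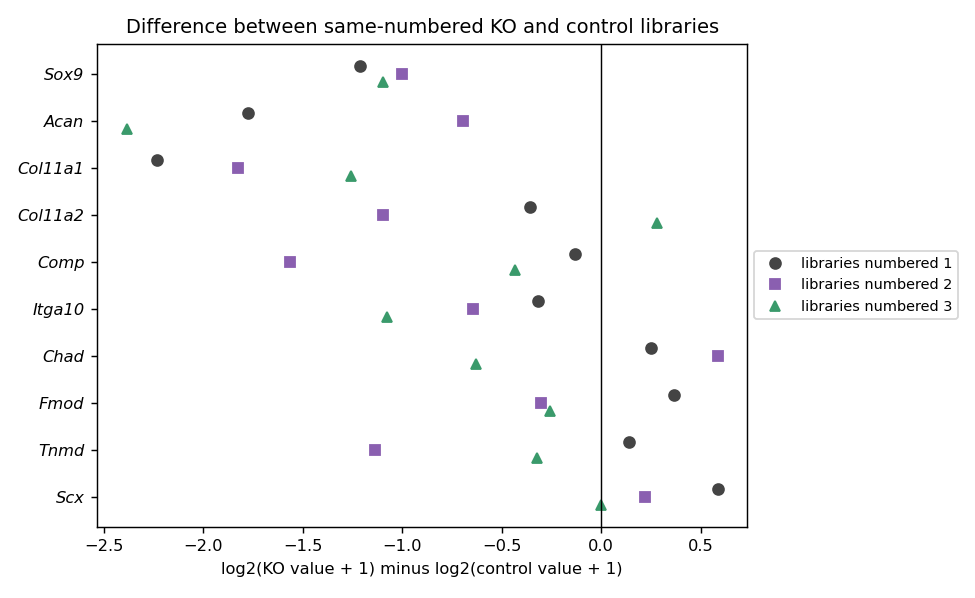
Difference in log2(value + 1) between the KO and the control library of the same number (horizontal axis) for each member, with 1 symbol per number. Sox9 lies between -1.21 and -1.0, whereas Acan spans -2.38 to -0.69, and Col11a2, Chad, Fmod and Tnmd have differences on both sides of 0.

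The remaining members are matrix proteins of cartilage and tendon whose groups overlapped. Chad (chondroadherin, a leucine-rich protein that binds cells to collagen) was at 20, 11 and 33 in the controls and 24, 17 and 21 with GPRC5C depleted. Its KO mean of 20.7 was slightly under the control mean of 21.3, while the mean of log2 values was 0.07 higher. Fmod (fibromodulin, a small leucine-rich proteoglycan that regulates fibril width) was at 264, 272 and 289 in the 3 controls, against 341, 220 and 242 in the KO group. The KO values lay on both sides of the controls, with a log2 fold change of -0.06 (SE 0.17). Tnmd (tenomodulin, a membrane protein of mature tendon cells) was at 109, 76 and 49 in control cells compared with 120, 34 and 39 in KO cells. In both groups library 1 was highest, and the log2 fold change of -0.44 (SE 0.50) became -0.11 without KO library 2 and -1.01 without KO library 1.

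Levels were compared between members as normalised reads per 1000 exonic bases. In controls the order was Fmod (83.2 ± 3.86), Tnmd (57.6 ± 22.2), Itga10 (21.6 ± 0.33), Col11a2 (19.2 ± 10.1), Comp (18.4 ± 6.61), Chad (12.7 ± 6.58), Acan (11.9 ± 6.89), Sox9 (8.46 to 11.1 in its 3 libraries), Col11a1 (5.52 ± 2.72) and Scx (1.49 ± 1.00) (SD, n = 3 each). Neighbours in this order overlapped in their libraries except Tnmd with Itga10 and Col11a1 with Scx. In KO libraries Fmod (81.0 ± 19.5) and Tnmd (47.5 ± 35.7) led again, and Col11a1 (1.54 ± 0.73) stood last, below Scx (1.83 ± 1.04), with overlapping values. Sox9 (4.51 ± 0.50) and Acan (4.28 ± 2.80) were neighbours there too, and the Sox9 libraries did not overlap with those of Comp (10.9 ± 3.06), the next higher member.

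The table's own annotation was read for the members. They were chosen as cartilage or tendon genes, so high shares of such terms were fixed by that choice and nothing is concluded from them. The Gene Ontology term skeletal system development was attached to 7 of the 10, against 2.49% of tested genes, and chondrocyte differentiation to 5 (Sox9, Col11a1, Col11a2, Acan and Scx), against 0.55%. Extracellular matrix was attached to 6 of the 10, against 2.37%. The 10 include Scx, which was not among the tested genes. By position, Sox9 and Chad lie on chromosome 11, as does Gprc5c, Col11a1 and Itga10 lie on chromosome 3, and the other 6 members are each on a chromosome of their own. Sox9 ends 2063412 bp before the start of Gprc5c. Of the 10 tested genes between them, 2 had a negative log2 fold change, 0 had KO values below control values without overlap, and the median was 0.07. On chromosome 11 these counts were 482 and 22 of 1022 tested genes (median 0.01), and over all tested genes 6344 and 282 of 12735. At such shares 0 of 10 is uninformative, and nothing is concluded from these 10 genes.

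RefSeq promoter sequences of Col11a1, Acan, Itga10 and Tnmd are shown, because they let a reader look for a SOX binding motif beside these values. All of these members had lower KO means, with overlapping groups for Tnmd and groups that touched at 46 for Acan. The gene start in the deposited table minus the RefSeq start was 257 bases for Acan, -28 for Tnmd and 0 for Col11a1 and Itga10. Each line is the 250 bases before the RefSeq start in GRCm38.p6, plus strand: chr3:114030290-114030539 for Col11a1, chr3:96645334-96645583 for Itga10, chr7:79052976-79053225 for Acan and chrX:133850758-133851007 for Tnmd. Capitals mark a SOX core (ACAATG or ACAAAG, either strand) or an E-box (CANNTG, the same on both strands), the motif of scleraxis and many other factors.
Col11a1: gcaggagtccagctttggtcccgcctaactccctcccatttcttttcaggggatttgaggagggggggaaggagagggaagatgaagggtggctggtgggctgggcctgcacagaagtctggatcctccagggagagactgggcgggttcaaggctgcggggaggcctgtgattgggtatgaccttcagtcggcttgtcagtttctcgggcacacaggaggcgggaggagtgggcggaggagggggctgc
Itga10: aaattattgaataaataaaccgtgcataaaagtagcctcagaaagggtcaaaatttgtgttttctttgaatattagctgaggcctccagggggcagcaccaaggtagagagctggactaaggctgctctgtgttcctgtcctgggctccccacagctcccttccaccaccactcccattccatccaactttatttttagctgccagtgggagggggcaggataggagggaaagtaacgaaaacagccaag
Acan: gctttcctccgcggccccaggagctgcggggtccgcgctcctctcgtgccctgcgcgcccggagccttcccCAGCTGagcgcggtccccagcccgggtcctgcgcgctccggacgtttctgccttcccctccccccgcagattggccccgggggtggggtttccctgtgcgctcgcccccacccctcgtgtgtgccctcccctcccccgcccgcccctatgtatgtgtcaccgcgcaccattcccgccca
Tnmd: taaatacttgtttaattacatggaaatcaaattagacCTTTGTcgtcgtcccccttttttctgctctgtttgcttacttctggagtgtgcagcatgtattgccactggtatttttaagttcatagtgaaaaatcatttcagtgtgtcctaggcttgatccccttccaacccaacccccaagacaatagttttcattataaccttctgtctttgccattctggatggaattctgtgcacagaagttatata
Windows that also include the 50 bases after the start were found for 7 members. A SOX core was present in 1 of them, Tnmd, 213 bases before the start, and 28.6% of all 32851 listed promoters held one. An E-box was present in 4 of the 7, against 72.3% of promoters. The windows of Col11a1 and Itga10 held neither. A window of this size says nothing about enhancers, where much SOX9 binding takes place.

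Other genes of the cartilage programme were examined in the same fit. In limma, 0 of all 12735 genes had an adjusted p under 0.05 (0%) and 230 (1.81%) had an unadjusted p under 0.05. Gprc5c itself was not called (log2 fold change -0.55, SE 0.13, unadjusted p = 0.0032, adjusted p = 0.999, limma). A count of 0 is therefore not read as an absence of change. With the replicate number as a block 1 gene passed after adjustment and 1305 were under 0.05 unadjusted. Of 72 tested cartilage, tendon and related matrix genes outside the members, 0 passed after adjustment. At an unadjusted p under 0.05 there were 3, all lower in KO libraries: Col9a1, Egr2 and Col27a1. Col9a1 passed the filter on low values only through the controls (means of 18.0 in controls and 2.33 in KO libraries). A lower KO level was therefore built into its being tested, and nothing is concluded from its call. With the replicate block 19 of the 72 were under 0.05 unadjusted, 12 lower and 7 higher, and 0 after adjustment. Of the 20 tested cartilage genes, 17 (Col9a1 among them) had a negative log2 fold change and the median was -0.28. Over all tested genes these were 6344 of 12735 and a median of 0.00. Between libraries of the same number the list's median was -0.23, -0.31 and 0.01 for numbers 1, 2 and 3. The count was 14 of 20 without control library 1, where the median was -0.17.

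Genes largely restricted to cartilage, Col2a1 and its partners, differed widely between libraries of the same group. Col2a1 (collagen II) was at 197, 321 and 4 in the controls and 5, 2 and 73 with GPRC5C depleted. Controls 1 and 2 were high, and KO library 3 was above control library 3. Col9a1 (a chain of collagen IX) was at 9, 38 and 7 in the 3 controls, against 0, 0 and 7 in the KO group, with an adjusted p of 0.999 in limma. Hapln1, the link protein of aggrecan, was at 4, 25 and 7 against 1, 0 and 4.

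The sum of 6 listed cartilage cell markers other than Acan was 220, 405 and 24 in control cells compared with 7, 3 and 96 in KO cells. At 0 were 1, 0 and 0 of these 6 in the controls and 3, 4 and 1 with GPRC5C depleted. These sums move with the group for numbers 1 and 2, and their part in the member values was not tested for any number. For number 3 the sum was higher in the KO library (24 against 96). In that pair Sox9 was at 46 and 21, Col11a1 at 42 and 17, Acan at 46 and 8 and Itga10 at 113 and 53 in the control and the KO library. Both libraries of that pair were the shallowest of their group, and Acan in KO library 3 rests on about 5.7 reads. Nothing is concluded from this single pair.

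**Figure D3:**
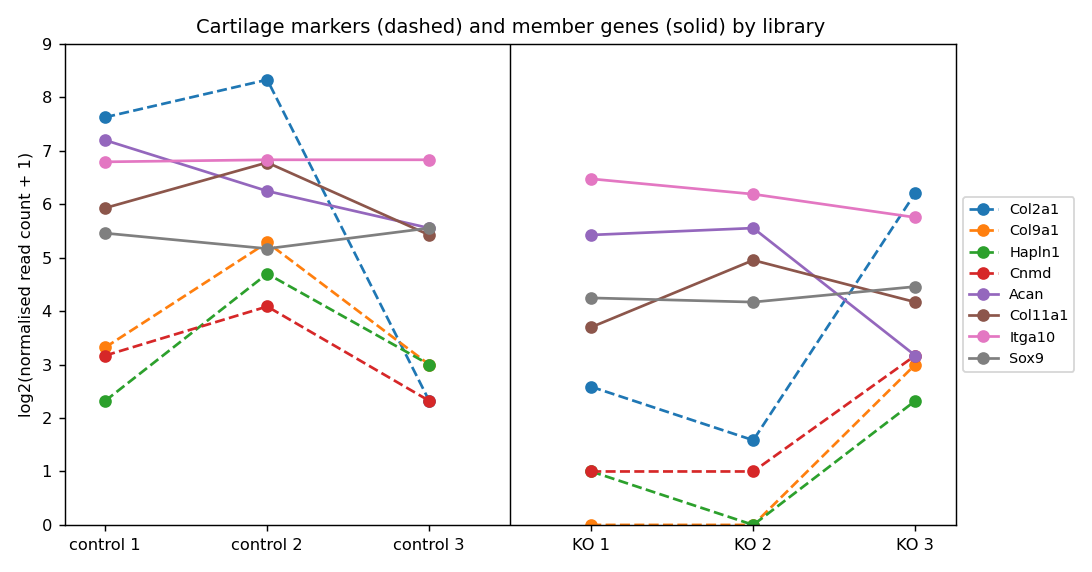
log2(normalised read count + 1) in each library (lines only join libraries of a group, which have no order) for 4 cartilage markers (dashed) and 4 members (solid). Col2a1 is high in controls 1 and 2 and in KO library 3, while Sox9 and Itga10 are lower in each KO library than in each control.

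Sox5 and Sox6 encode the partners of SOX9 in cartilage, and both are also in the cartilage list. Sox6 was at 634, 400 and 248 in the 3 controls, against 573, 222 and 164 in the KO group, and Sox5 at 355, 284 and 243 against 293, 210 and 216. Both were lower in the KO library of every pair, but their groups overlapped, and log2 fold changes were -0.53 (SE 0.50) for Sox6 and -0.29 (SE 0.19) for Sox5 (adjusted p = 0.999 for each in limma). Sox13 was at 367, 307 and 231 against 322, 228 and 218, and Sox4 at 166, 183 and 150 against 135, 185 and 157, each with overlap. Sox8, which belongs with Sox9 and Sox10 to the SOXE group, was at 19, 22 and 37 in control cells compared with 23, 14 and 17 in KO cells. Sox10, the Schwann cell member of that group, was at 12, 7 and 1 against 19, 10 and 14. Of 9 tested SOX genes other than Sox9, 5 had a negative log2 fold change, with a median of -0.07. Sox10 passed the filter on low values only through the KO group, so its positive sign was built in. Without the replicate block 0 of the 9 had an unadjusted p under 0.05 in limma. With it 3 were lower and 1 higher at that threshold, beside 759 lower and 546 higher of all 12735 tested genes, and 0 of the 9 passed after adjustment.

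Col27a1, a fibrillar collagen of cartilage, was at 254, 247 and 239 in the controls and 219, 197 and 167 with GPRC5C depleted. Its groups did not overlap, and the log2 fold change was -0.35 (SE 0.13) (adjusted p = 0.999, limma). Prg4 (lubricin, the lubricant of joint surfaces) was at 26, 27 and 52 in the 3 controls, against 50, 52 and 53 in the KO group, a log2 fold change of 0.62 (SE 0.28) and the opposite direction to most of the list (adjusted p = 0.999, limma).

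Tendon genes were divided in direction. Of 31 tested genes, 15 had a negative and 16 a positive log2 fold change, with a median of 0.02 and medians of -0.12, 0.21 and -0.18 for numbers 1, 2 and 3. The 15 include Omd, which passed the filter on low values only through the controls. Egr2, an early growth response factor that also acts in tendon, was at 134, 144 and 123 in control cells compared with 115, 87 and 80 in KO cells, without overlap, with a log2 fold change of -0.52 (SE 0.17) (adjusted p = 0.999, limma). Mkx, the tendon homeobox factor, was at 34, 39 and 12 against 41, 19 and 8, with high and low values in both groups. Tnc (tenascin-C) ranged from 283 to 352 in the controls and from 268 to 970 in the KO group, whose library 2 held the maximum.

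Families around single members were read in the same way. The collagen-binding integrins related to Itga10 were Itga1, Itga2 and Itga11 with their partner chain Itgb1. All 4 had a positive log2 fold change, with a median of 0.16, none at an unadjusted p under 0.05 in limma without the replicate block. With the block 1 of them, Itga1, was under 0.05 unadjusted, as were 1305 of all 12735 tested genes, and 0 of the 4 passed after adjustment. Itga1, the chain abundant in smooth muscle, was at 1329, 1381 and 1628 in the controls and 1371, 1753 and 1986 with GPRC5C depleted. Thrombospondin genes, the family to which Comp belongs, had a negative log2 fold change in 1 of 4, Thbs1, and a median of 0.09. Thbs4, a thrombospondin of tendon, was at 254, 273 and 466 against 307, 329 and 391. Of 12 tested small leucine-rich proteoglycan genes other than Fmod and Chad, 7 had a negative log2 fold change, with a median of -0.07. The 7 include Chadl (means of 15.7 and 8.0) and Omd (13.3 and 8.0). Both passed the filter on low values only through the controls, so their sign was built into their being tested. In this list Bgn (biglycan) averaged 637.3 ± 91.8 and 657.0 ± 143.5 and Dcn (decorin) 571.7 ± 123.0 and 545.3 ± 148.4 in control and KO libraries (SD, n = 3 each). Fibrillar collagen partners of collagen XI had a median of -0.08, with 6 of 9 negative. The 6 include Col24a1 (means of 15.3 and 9.67), which also passed the filter only through the controls. Of the partners, Col5a1 averaged 1172.7 ± 259.1 and 1244.7 ± 510.7 and Col1a1 2351.7 ± 426.5 and 2252.0 ± 646.6 in control and KO libraries (SD, n = 3 each). Chondroitin sulfate proteoglycans had a median of -0.03, with 3 of 6 negative. Vcan (versican, the main such proteoglycan of the vessel wall) was at 267, 359 and 363 in the 3 controls, against 145, 476 and 188 in the KO group.

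**Figure D4:**
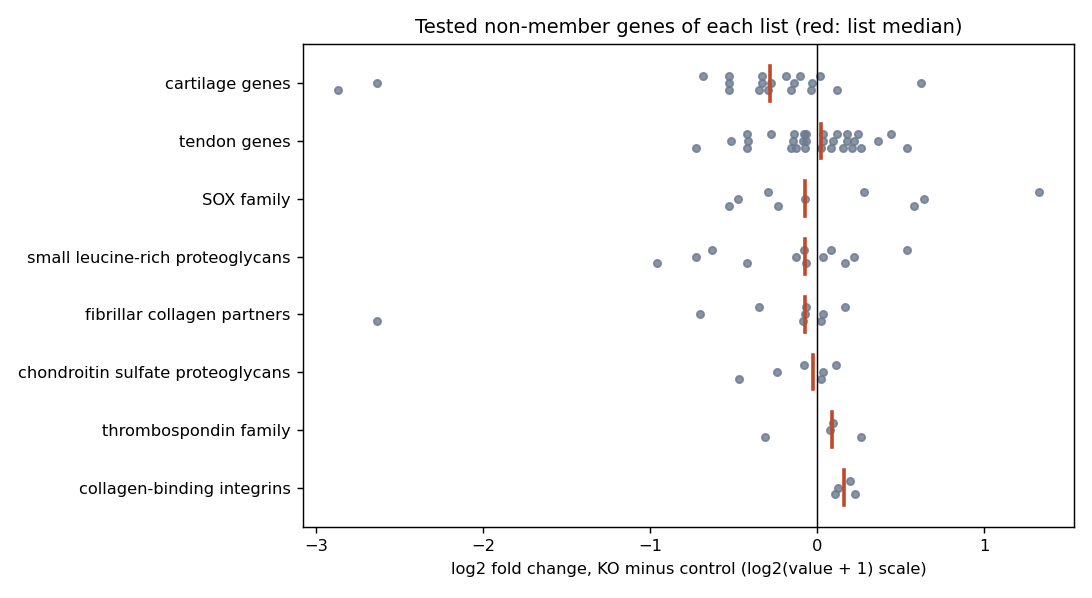
log2 fold change, KO minus control on the log2(value + 1) scale, of each tested gene outside the members (1 dot per gene), by list, with the list median in red. The cartilage list has its median at -0.28, and the other 7 medians lie between -0.08 and 0.16.

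The genes most like Sox9 over the 6 libraries were sought among 10263 with a mean of at least 20 that passed a filter on names. That filter left out symbols in the form of predicted-gene or clone names. It also takes out named genes whose symbol begins with 2 letters and a digit, so ranks are among these candidates only. By Pearson's r of log2(value + 1), given as a measure of likeness only, the most alike were Mid1 (0.998), Stn1 (0.984), Glrx (0.977), Tmem126b (0.974) and Strn4 (0.974). Mid1, a microtubule-associated ubiquitin ligase, was at 48, 42 and 49 in control cells compared with 29, 29 and 31 in KO cells, so that it shared with Sox9 the dip in control library 2. Strn4 was at 272 to 273 in controls and 254 to 260 in KO libraries, a far smaller step. The members most like Sox9 by this measure were Itga10 (0.759, rank 161) and Col11a1 (0.729, rank 199), followed by Comp (0.644) and Acan (0.537). When the group means were removed first, the 5 most alike were Opcml, Trrap, Chmp2a, Dock10 and Deaf1 (0.990 to 0.995), and among the members Chad had 0.81, Fmod 0.04, Comp -0.03, Tnmd -0.20, Col11a2 -0.31, Itga10 -0.48, Acan -0.56 and Col11a1 -0.74. These likenesses share their libraries and are given without a test.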

How the data were processed

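RNA from sorted SMC was sequenced in 3 control and 3 iSM-G5C-KO libraries, grouped by the sample descriptions. The deposited values are a score: normalised read numbers, which the authors scaled library by library and wrote as whole numbers, judged from the name of the table and the spacing of its low values. DESeq2 1.18.1, featureCounts 1.6.5 (Subread), STAR 2.6.1d and Trimmomatic 0.39 appear in the submitters' processing notes, as do the builds mm10 and GRCm38.p5, without their roles. No source used here says whether counting was strand-specific. The worth of 1 read per library was found by a grid search over the spacing of values, and estimated reads are values divided by it.

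limma 3.58.1 (R 4.3.3, intensity trend, 2-sided) was fitted to log2(value + 1) of the 12735 genes with a mean of at least 10, with Benjamini-Hochberg adjustment over all of them. It was checked on simulated data that, unlike these, gave all genes the same added spread and held no pairs or differences in depth. Fold changes on this scale understate those of low genes. Members and lists were chosen with earlier results of these data known. Named are the members, Gprc5c, list genes with an unadjusted p under 0.05 or otherwise high means, and the 5 genes most like Sox9. Others described for their role in cartilage or tendon (Prg4, Mkx, Hapln1, Col2a1, Col5a1, Sox8, Sox10 and Tnc) were named after their values were seen. Exon lengths are the union of GENCODE M21 exons.

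Same-numbered libraries deviated together from their group means (correlations over genes of 0.59, 0.31 and 0.44 for numbers 1, 2 and 3, against at most 0.16 for other combinations), so the numbers were treated as pairs. This comes from the data, not from a label, and since libraries numbered 1 were the deepest and those numbered 3 the shallowest of each group, depth cannot be told apart from the number. Alternatives covered the pseudocount, the filter, scaling, trend, sample weights, the block and each library left out.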

Additional observations from a re-analysis of the deposited data

How the results depend on the processing

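With the replicate block 1 gene in all passed an adjusted p of 0.05, and the block changed no other adjusted call. Unadjusted calls did move, with 1305 of all genes under 0.05 against 230 without it. Among the 72 other cartilage and tendon genes 0 passed after adjustment, with 19 at an unadjusted p under 0.05 against 3 without the block. Over all genes the count passing after adjustment was 2 with sample quality weights, 17 when pair 1 was dropped from the blocked fit, 1 when pair 2 was dropped and 0 when pair 3 was dropped (dropping pairs was chosen after seeing the data), and the cause was not tested. It was 0 whichever single library was left out. Unadjusted, 0 of the other cartilage and tendon genes were under 0.05 without control library 2, 1 without KO library 3 and 11 without KO library 1. Of the 9 tested members, 8 had a negative log2 fold change, and leaving out 1 library gave 7 to 9. Over the 18 alternatives the log2 fold change of Sox9 lay between -1.21 and -0.96, that of Col11a1 between -2.11 and -1.40, that of Itga10 between -0.86 and -0.48 and that of Acan between -2.08 and -0.84. Comp ranged from -1.19 to -0.28, and Fmod and Chad took both signs. Without the filter on low values the median log2 fold change was -0.14 over all genes and -0.33 in the cartilage list. Control library 3 had 29707 genes above 0, against 20481 to 21179 in the others, and its part in these medians was not tested. Low read numbers limit the precision of Scx, Col9a1, Hapln1, Sox10, Col2a1 in some libraries and Acan in KO library 3.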
